A study of Homo sapiens with 12 samples.

Results

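REST, the gene of a transcriptional repressor, and 9 neuronal genes, SYP, SYN1, SNAP25, MAPK8IP1, MAPK8IP2, STMN3, L1CAM, VGF and SCG5, were followed through 12 HEK293T libraries. They are 10 of the 34318 genes to which a transcript of the deposited table could be matched. For each gene, estimated reads and TPM (a level scaled by transcript length and library size) were summed over the transcripts that carry its GENCODE symbol. The set was chosen by the siRNA comparison, in which SYP and MAPK8IP2 had the largest increases of these genes. The siPOLR3A and siControl values of the 10 genes are therefore given as a description with no test, whereas the ML60218 comparison, which did not choose them, was tested. All 10 genes passed the filter on low counts in both comparisons.

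HEK293T is a human embryonic kidney line, labelled as kidney and epithelial. In the first experiment the cells received siControl, a control siRNA, or siPOLR3A, an siRNA against the largest subunit of RNA polymerase III, by lipid transfection, and RNA was taken after 2 days. In the second they received 0.1% DMSO, the vehicle, or 25 µM ML60218, an inhibitor of RNA polymerase III, for 4 hours, with no transfection named in the labels. Each of the 4 groups had 3 libraries of messenger RNA. Nothing in the labels says that the libraries of a group came from separate cultures, so p-values measure only the spread between these samples, which may be technical.

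REST (RE1 silencing transcription factor, also called NRSF) is a zinc finger protein that binds a long DNA element, RE1, in and near many neuronal genes. It keeps those genes low in cells that are not neurons by bringing in corepressors, SIN3 with histone deacetylases at one end and CoREST with the demethylase KDM1A at the other. As neurons mature, REST protein falls and genes for synaptic vesicles, axons and secretory granules come on. HEK293T is not a neuronal line by its labels, and REST mRNA was present in all of its libraries.

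RE1 was searched as its half-sites TTCAGCACC and GGACAGNGC, where N is any base, with 2 free letters between them, on both strands of RefSeq promoter windows (GRCh38.p14). Each window ran from 250 bases before to 50 bases after an annotated start, and 8 of the 10 genes had one. SNAP25 and MAPK8IP1 had none. The closest match of the genes with the clearest match and of the genes with the largest increases after siPOLR3A is shown to compare them with the element. Capitals mark letters that equal a half-site letter.
SYN1: TTCAGCACCgcGGACAGtGC
VGF: TTCAGCACgctGGACAGcGC
STMN3: TTCAGCgCCccctcCAGccC
SYP: TgCAGCcgCctGGgCtGttC
MAPK8IP2: gTCcGCcCCgcGcACctcGC
The SYN1 sequence lies at chrX:47620071-47620090 on the minus strand, at positions -233 to -214 from the start, and has 0 mismatches over the 17 fixed letters. The VGF sequence lies at chr7:101165559-101165578 on the plus strand, at positions -9 to 10 from the start, and has 1 mismatch. The closest letters had 5 mismatches for STMN3 (chr20:63652826-63652845, plus strand), 6 for SYP (chrX:49200261-49200280, minus strand) and 6 for MAPK8IP2 (chr22:50600694-50600713, minus strand). At most 3 mismatches were found in the windows of 2 of the 8 genes, against 83 of 35116 promoter windows overall (0.236%). That share counts windows, and a gene can have several. The pair with the largest increases, SYP and MAPK8IP2, therefore had no such match in this short window, and SYN1, with the exact one, was at most at 1.05 CPM (read counts scaled to library size) in every library. Sequence outside these windows was not used here.

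Libraries held 37008325 to 49479476 estimated reads. POLR3A itself was at 86.2 to 92.5 CPM in siControl and 14.5 to 19.2 CPM in siPOLR3A. Over all genes, 8722 of 15404 tested (56.6%) were called after siPOLR3A and 6029 of 15461 (39%) with ML60218, by edgeR's quasi-likelihood test at a Benjamini-Hochberg adjusted p under 0.05, and the median log2 fold change of all tested genes was 0.005 in each comparison. The 7 markers of the line (led by VIM) summed to 688 to 706 CPM in siControl, 531 to 547 CPM in siPOLR3A, 676 to 691 CPM in DMSO and 698 to 727 CPM in ML60218, while all 7 markers of mature kidney were under 1 CPM in each library. VIM fell by 0.52 after siPOLR3A (edgeR adjusted p = 1.13e-10), in the comparison where SYP and MAPK8IP2 differ most, and its part in their values was not tested. The line markers did not fall together. Of the 7, edgeR called 3 higher and 2 lower after siPOLR3A, against 27.4% and 29.2% of all genes. Their median log2 fold change was 0.14. The labelled tissue is thus not visible through markers of differentiated kidney. In bulk RNA, fewer cells that express a gene and less of its RNA per cell cannot be told apart.

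REST, the repressor itself, was lower in both treated groups than in their controls. It was at 102.7, 108.3 and 105.3 CPM in siControl and at 66.6, 72.4 and 77.5 CPM in siPOLR3A. All siPOLR3A libraries were below all siControl libraries, and the means of 105.4 ± 2.81 and 72.2 ± 5.49 CPM (SD, n = 3) differed by a log2 fold change of -0.55 (SE 0.05). In DMSO it was at 78.6, 76.9 and 78.8 CPM and in ML60218 at 55.0, 63.3 and 64.4 CPM. The ML60218 libraries again lay below every control library: REST fell by 0.36 on the log2 scale (SE 0.06, edgeR adjusted p = 0.00108), 1.28-fold. On deposited TPM with limma, a scale on which the median of all genes moved to 0.107, the change was -0.20 and was not called (adjusted p = 0.161). REST-201, the main protein-coding transcript, carried 90.6% to 96.9% of the gene's reads in each group.

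**Figure D1:**
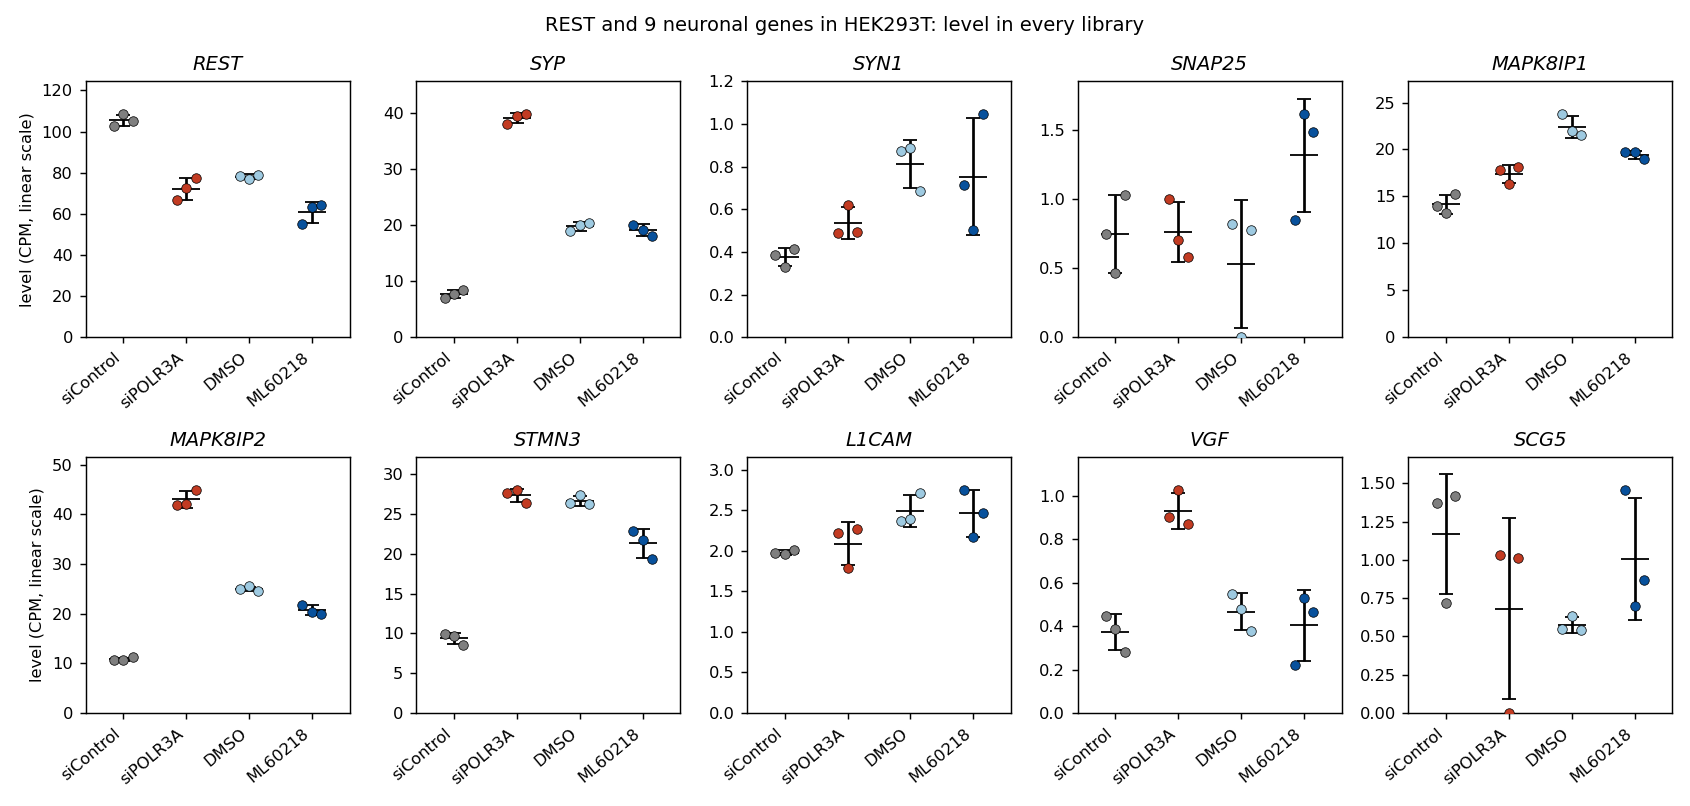
Level of each gene in every library, in CPM on a linear axis that starts at 0; each point is 1 library, and the horizontal mark and bar are the mean ± SD of 3 libraries. SYP, MAPK8IP2 and STMN3 sit between 26.4 and 44.8 CPM in siPOLR3A against 7.01 to 11.2 CPM in siControl, while the DMSO libraries lie above the siControl libraries for the same 3 genes.

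SYP encodes synaptophysin, an abundant membrane protein of synaptic vesicles and a standard marker of neurons and neuroendocrine cells. It was at 7.01, 7.76 and 8.42 CPM in siControl and at 38.0, 39.4 and 39.7 CPM in siPOLR3A, a 5.02-fold difference (log2 fold change 2.33, SE 0.06). The groups were far apart, and SYP ranked 19 of 14439 protein-coding genes from the highest increase, which is how it was selected. With ML60218 no such difference appeared: the libraries were at 18.9, 20.1 and 20.3 CPM in DMSO and at 20.0, 19.2 and 18.0 CPM in ML60218. The groups overlapped, and the log2 fold change of -0.05 (95% interval -0.17 to 0.07, edgeR adjusted p = 0.54) was not called. That interval leaves room for small changes in either direction but not for one of the size seen in the siRNA libraries.

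The reads of SYP were divided mainly between 2 of its 8 listed transcripts. SYP-201, which encodes the protein, was at 3.08 ± 0.25 TPM in siControl and 16.4 ± 0.52 TPM in siPOLR3A (SD, n = 3), and at 8.74 and 9.06 TPM in DMSO and ML60218. SYP-208, annotated with a retained intron, was at 0.792 ± 0.185 TPM in siControl and 2.15 ± 0.099 TPM in siPOLR3A. Both were higher in siPOLR3A, and the retained-intron form made up 23.2% of the gene's reads in siControl, with single libraries at 18.3% to 26.4%. It made up 12.3%, 12.1% and 13.3% in siPOLR3A, DMSO and ML60218. Among matched transcripts, the siControl libraries thus had the lowest SYP level and the largest share of this form, with no overlap with the other groups. Unmatched transcripts listed between those of SYP are left out of these levels and shares. With them, the siControl libraries held 331.8, 377.5 and 429.5 estimated reads instead of 235.3, 282.4 and 326.9. The siPOLR3A libraries held 1637.2, 1641.8 and 1531.5 instead of 1475.4, 1458.9 and 1367.9. The log2 fold change was then 2.05 instead of 2.33.

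SYN1 encodes synapsin I, which tethers synaptic vesicles to the actin cytoskeleton. It was near the limit of detection, at 0.388, 0.33 and 0.412 CPM in siControl and 0.489, 0.622 and 0.493 CPM in siPOLR3A. The groups did not overlap, but the log2 fold change of 0.50 had an SE of 0.29. In DMSO it was at 0.873, 0.886 and 0.685 CPM and in ML60218 at 0.714, 0.501 and 1.05 CPM, with overlap and no call (log2 fold change -0.10, edgeR adjusted p = 0.819). ARAF and TIMP1 overlap the span of SYN1 on the opposite strand, at 41.8 and 19.0 CPM over the 12 libraries. The libraries are strand-specific per the labels, and whether any ARAF or TIMP1 reads were given to SYN1 was not tested.

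SNAP25 encodes a SNARE protein that drives the fusion of vesicles with the cell membrane. Its values were 0.746, 0.468 and 1.03 CPM in siControl and 1.00, 0.703 and 0.58 CPM in siPOLR3A, with overlap. In DMSO it was at 0.823 and 0.78 CPM in libraries 1 and 3 and was listed at 0 in library 2, where 3 reads would be 0.0682 CPM. The ML60218 libraries were at 0.851, 1.62 and 1.49 CPM, above all DMSO libraries, but the log2 fold change of 1.32 had an SE of 0.94 (edgeR adjusted p = 0.339). The 0 belonged to the matched transcripts only: with the unmatched transcripts that lie between those of SNAP25 in the table, the library held 33.8 reads, and the log2 fold change became 0.59 (adjusted p = 0.0777). The larger fold change rests on that library.

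MAPK8IP1 and MAPK8IP2 encode JIP1 and JIP2, scaffolds that hold kinases of the JNK cascade together and link cargo to the motor kinesin. MAPK8IP2 was at 10.6, 10.7 and 11.2 CPM in siControl and at 41.9, 42.1 and 44.8 CPM in siPOLR3A. The groups were 3.95-fold apart (log2 fold change 1.98, SE 0.05), with little spread in either, and its rank was 31 of 14439. It was at 24.9, 25.5 and 24.6 CPM in DMSO and at 21.8, 20.3 and 20.0 CPM in ML60218. All ML60218 libraries were lower than all DMSO libraries, and MAPK8IP2 fell by 0.27 on the log2 scale (SE 0.05, edgeR adjusted p = 0.00373), 1.21-fold. It thus moved against its siRNA difference, in a comparison of other length and treatment; the difference between the 2 effects was not tested because the siRNA effect chose the gene. The gene overlaps CHKB on the opposite strand, and a single transcript carried 97.9% to 99.1% of its reads in each group.

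MAPK8IP1, the nearest relative, differed far less. It was at 14.0, 13.3 and 15.3 CPM in siControl and at 17.8, 16.3 and 18.1 CPM in siPOLR3A, 1.22-fold apart without overlap. Its transcripts are rich in G and C (64.4%), and with the trend of fold change on GC content and length removed its log2 fold change was 0.03 instead of 0.29. The same correction left SYP at 2.21, MAPK8IP2 at 1.65 and STMN3 at 1.33. It moved VGF from 1.32 to 0.94, SYN1 from 0.50 to 0.31 and L1CAM from 0.07 to -0.08. REST, SNAP25 and SCG5 were then at -0.51, 0.07 and -0.76. With ML60218, MAPK8IP1 went from 23.7, 21.95 and 21.52 CPM in DMSO to 19.7, 19.7 and 19.0 CPM and fell by 0.20 (SE 0.06, edgeR adjusted p = 0.0186). That call was lost without DMSO replicate 1 (adjusted p = 0.0871), which had the highest value, and on total-count scaling, with the GC trend removed and on TPM (adjusted p = 0.1, 0.115 and 0.484).

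STMN3 encodes a stathmin of neurons that binds tubulin and loosens microtubules. It was at 9.87, 9.63 and 8.60 CPM in siControl and at 27.62, 27.97 and 26.36 CPM in siPOLR3A, 2.91-fold apart (log2 fold change 1.54, SE 0.06). With ML60218 the values went from 26.3, 27.4 and 26.3 CPM to 22.9, 21.8 and 19.3 CPM. STMN3 fell by 0.32 (SE 0.07, edgeR adjusted p = 0.00427), with no overlap between the groups. For MAPK8IP2 and STMN3 the ML60218 call was lost on deposited TPM (adjusted p = 0.273 and 0.133), where both log2 fold changes stayed negative, at -0.13 and -0.16.

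L1CAM, a cell adhesion molecule of growing axons, differed little between the groups of either comparison. Its libraries were at 1.97, 1.95 and 2.01 CPM in siControl and at 2.21, 1.78 and 2.26 CPM in siPOLR3A, with overlap. In DMSO they were at 2.37, 2.39 and 2.72 CPM and in ML60218 at 2.75, 2.17 and 2.47 CPM. The log2 fold change with ML60218 was -0.02 (95% interval -0.29 to 0.26, edgeR adjusted p = 0.938).

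VGF encodes a granule protein that is cut into peptides. It was at 0.447, 0.385 and 0.283 CPM in siControl and at 0.901, 1.03 and 0.87 CPM in siPOLR3A, 2.50-fold apart without overlap. These levels rest on 11 to 15 estimated reads per siControl library and 30 to 38 per siPOLR3A library. On log2(TPM + 1), which shrinks low genes, the difference was 0.47 instead of 1.32. With the trend on GC content and length removed it was 0.94. With ML60218 it went from 0.548, 0.477 and 0.378 CPM to 0.22, 0.529 and 0.467 CPM, with overlap and no call (log2 fold change -0.20, edgeR adjusted p = 0.683). The promoter windows of VGF and SYN1 hold the element with 1 and 0 mismatches. Their siRNA log2 fold changes were 1.32 (95% interval 0.81 to 1.84) and 0.50 (95% interval -0.07 to 1.06). The intervals overlap, both genes rest on few reads, and a link between the element and these differences was not tested.

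SCG5 encodes the chaperone 7B2 of the hormone-processing enzyme PC2. It was at 1.37, 0.715 and 1.42 CPM in siControl and at 1.03 and 1.02 CPM in siPOLR3A libraries 1 and 3, and was listed at 0 in library 2, where 3 reads would be 0.0811 CPM. The groups overlapped, and without siPOLR3A replicate 2 the log2 fold change was -0.19 instead of -0.78. With ML60218 it went from 0.548, 0.636 and 0.543 CPM to 1.46, 0.696 and 0.867 CPM. These groups did not overlap, and the log2 fold change of 0.80 (SE 0.29) had an edgeR adjusted p of 0.0526, which ranged from 0.0291 to 0.454 over 17 alternatives and was under 0.05 in 6 of them.

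**Figure D2:**
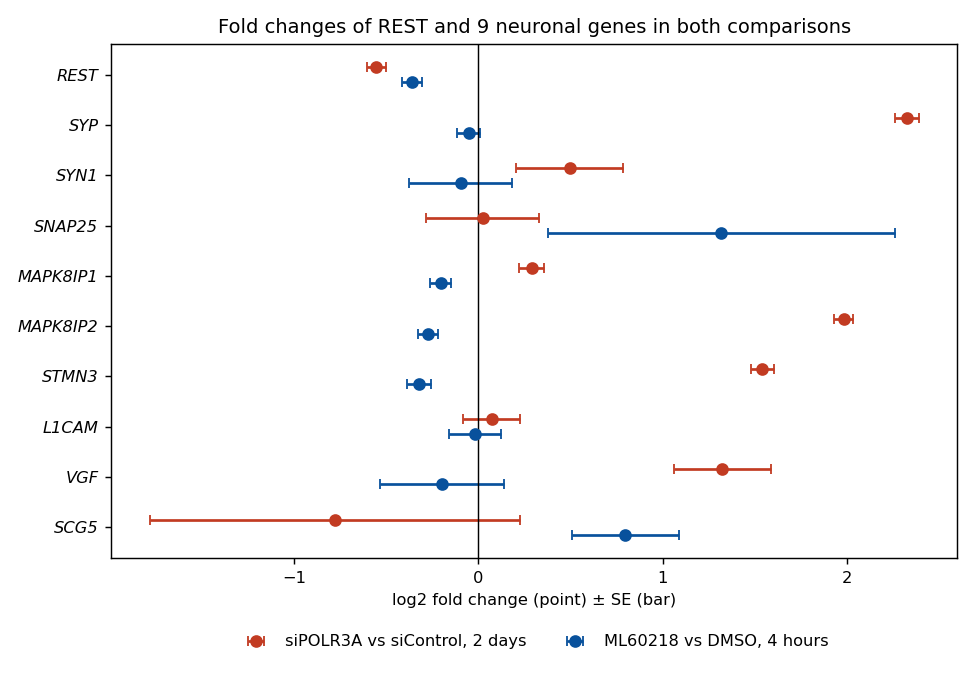
log2 fold change of each gene in the siPOLR3A comparison (red) and the ML60218 comparison (blue), as point ± SE from edgeR fits of 6 libraries each. SYP, MAPK8IP2, STMN3 and VGF lie between 1.32 and 2.33 in red, and in blue all but SNAP25 and SCG5 lie below 0.

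In the siRNA comparison, 4 of the 9 neuronal genes were at least 2-fold higher. The groups of 7 of the 10 genes did not overlap, against 63.5% of all genes, and nothing is read from these counts because this comparison chose the genes. With ML60218, 4 of the 10 genes were called lower, REST, MAPK8IP1, MAPK8IP2 and STMN3, against 20.9% of all genes. On deposited TPM with limma none of these 4 was called (adjusted p = 0.161, 0.484, 0.273 and 0.133). None was called higher by edgeR (18.1% of all genes were) or by DESeq2, and 1, SCG5, was higher at an unadjusted p under 0.05. The groups of 6 of the 10 genes did not overlap, against 51.8% of all genes. The median log2 fold change with ML60218 was -0.15 over the 10 genes and -0.10 over the 9 neuronal genes, against 0.005 over all genes.

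The controls of the experiments differed in these genes too. Mean CPM in DMSO was 2.84-fold that in siControl for STMN3, 2.56-fold for SYP, 2.31-fold for MAPK8IP2 and 2.16-fold for SYN1, and 1.58-fold for MAPK8IP1. At least 2-fold lower levels in siControl than in DMSO were found for 256 of 15741 genes (1.63%). REST was the reverse, 105.4 CPM in siControl against 78.1 CPM in DMSO, as were SCG5 at 1.17 against 0.576 CPM and SNAP25 at 0.748 against 0.534 CPM, which includes the DMSO library listed at 0. The siPOLR3A mean was 1.98-fold the DMSO mean for SYP and 1.72-fold for MAPK8IP2, but 1.03-fold for STMN3 and 0.924-fold for REST. The siPOLR3A libraries thus had the highest SYP and MAPK8IP2 of all groups, while their STMN3 and REST were close to those of DMSO. The experiments differ in transfection and in duration, which cannot be told apart, and the siControl libraries entered the choice of the genes, so these ratios have no test.

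Scaled by transcript length, the order of the genes changed with the group. In siControl, REST led at 18.2 ± 0.24 TPM (SD, n = 3), before MAPK8IP1 at 8.39 ± 0.90 TPM and STMN3 at 7.51 ± 0.65 TPM, which differed by less than the SD of MAPK8IP1, SYP at 4.38 ± 0.57 TPM and MAPK8IP2 at 3.08 ± 0.12 TPM. In siPOLR3A, SYP at 23.4 ± 0.86 TPM and STMN3 at 22.2 ± 0.90 TPM led, and REST at 12.8 TPM and MAPK8IP2 at 12.3 TPM differed by less than the SD of REST, 1.18 TPM. In DMSO, STMN3 was at 22.4 TPM and MAPK8IP2 at 7.38 TPM, with REST at 13.4 ± 0.32 TPM, MAPK8IP1 at 12.7 ± 0.93 TPM and SYP at 11.5 ± 0.13 TPM between them; REST and MAPK8IP1 differed by less than the SD of MAPK8IP1. In ML60218, STMN3 led at 20.0 TPM, and SYP at 12.1 TPM, MAPK8IP1 at 11.9 TPM and REST at 11.5 ± 1.55 TPM lay within 1 SD of REST, above MAPK8IP2 at 6.66 TPM. L1CAM, SCG5, SNAP25, VGF and SYN1 had group means of 0.282 to 1.44 TPM.

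**Figure D3:**
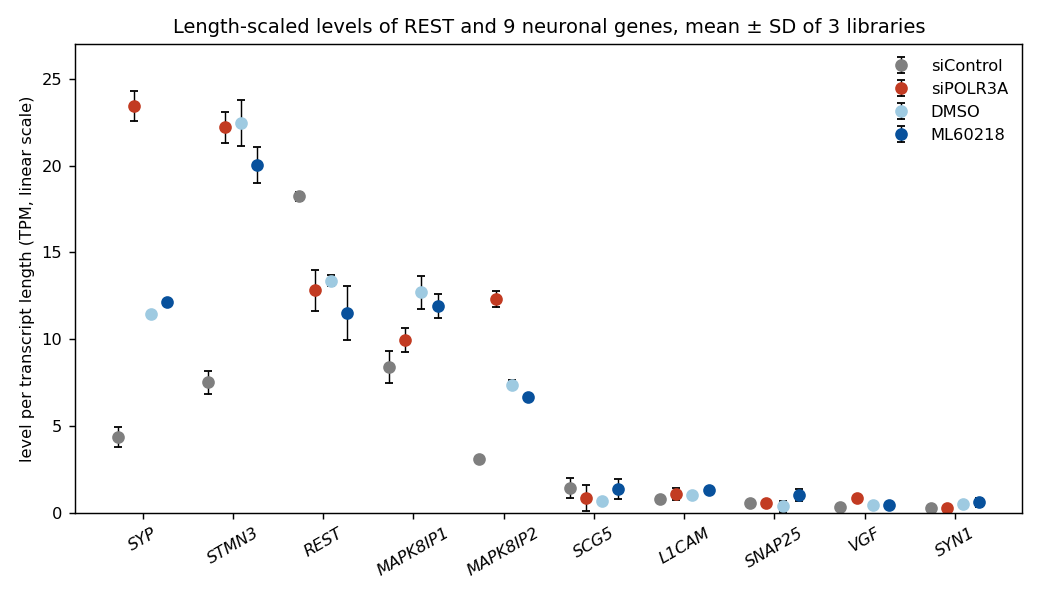
Mean level per transcript length of each gene in each group, in TPM on a linear axis, ± SD of 3 libraries, ordered by the highest group mean. SYP is at 4.38 TPM in siControl and 23.4 TPM in siPOLR3A, and REST is highest in siControl at 18.2 TPM.

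The genes with the most similar profiles were ranked by the root mean square difference of log2 CPM over the 12 libraries, each profile centred on its own mean, among 11397 protein-coding genes. The nearest to SYP was MAPK8IP2, at 0.16, followed by CPLX1, which encodes the release regulator complexin, at 0.31, and SLC36A1, an amino acid transporter of lysosomes, at 0.33. STMN3 was at rank 8. The nearest to MAPK8IP2 were SYP, CPLX1 at 0.22 and SLC36A1 at 0.22. SLC36A1 was at 19.7, 72.1, 33.4 and 26.0 CPM in siControl, siPOLR3A, DMSO and ML60218. For REST the nearest were SPOPL at 0.107, LRP2BP at 0.109 and TRAK2 at 0.109. These libraries share their groups, so a small distance mostly reflects the 4 group means. The distances also include the siControl and siPOLR3A libraries that chose SYP and MAPK8IP2 as the genes with the largest increases, so the closeness of this pair restates that choice.

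A list of 36 other neuronal genes known as REST targets was written from general knowledge and not by ranking their values. Earlier results of these data were known when it was written, so its counts are not an independent test. It holds NEFH, whereas NEFM and NEFL, which fell after siPOLR3A, were placed among the neuronal markers. After siPOLR3A, 16 of the 22 that could be tested rose and none fell, against 27.4% and 29.2% of all genes, by edgeR's quasi-likelihood test. At an unadjusted p under 0.05, and by DESeq2, 0 were lower. Their median log2 fold change was 0.70 against 0.005 for all genes, and 8 rose at least 2-fold. The other 14 had too few reads. Of the 21 with at least 10 reads in every siControl library, which did not depend on the treated group to pass the filter, 15 rose. On log2(TPM + 1) with limma, which shrinks low genes, the median was 0.23. Both siRNA groups differed from DMSO for this list, in opposite directions. Mean CPM in siControl was below that in DMSO for 17 of the 22 genes, with a median log2 ratio of -0.37 against 0.011 over all genes. It was at least 2-fold lower for 6 of the 22, against 1.63% of all genes. The siPOLR3A mean was above the DMSO mean for 14 of the 22, with a median log2 ratio of 0.35. These levels come from separate experiments and have no test.

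AP3B2, a neuronal subunit of the AP-3 vesicle coat, rose from 0.675 ± 0.129 to 2.86 ± 0.345 CPM (SD, n = 3), a log2 fold change of 2.07 (SE 0.19, edgeR adjusted p = 4.99e-07). CPLX1 rose from 2.63 ± 0.444 to 7.37 ± 0.133 CPM (1.48, SE 0.12, edgeR adjusted p = 1.54e-07). SCN3B, a sodium channel subunit, rose from 1.42 to 3.43 CPM (1.27, edgeR adjusted p = 1.35e-05). With ML60218, 6 of 25 tested rose and 1 fell, with a median of 0.20, against 18.1% and 20.9% of all genes, so the count that rose was near the share over all genes. BSN, a scaffold of the presynaptic active zone, rose by 0.67 (edgeR adjusted p = 0.00205), HCN4, a pacemaker channel, by 0.55 (adjusted p = 0.0193) and AP3B2 by 0.51 (adjusted p = 0.049), while INA, a neurofilament protein, fell by 0.15 (adjusted p = 0.04). AP3B2, BSN, SCN2A and CELSR3 rose in both comparisons, whereas SYP was not called and MAPK8IP2 and STMN3 fell with ML60218. The count of 6 was 3 by DESeq2 and without DMSO replicate 2. Of the 26 listed genes with a promoter window, 2 held an RE1 match with at most 3 mismatches, GRIA2, which could not be tested, and CELSR3. Over all promoter windows the share was 0.236%, counted per window and not per gene.

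**Figure D4:**
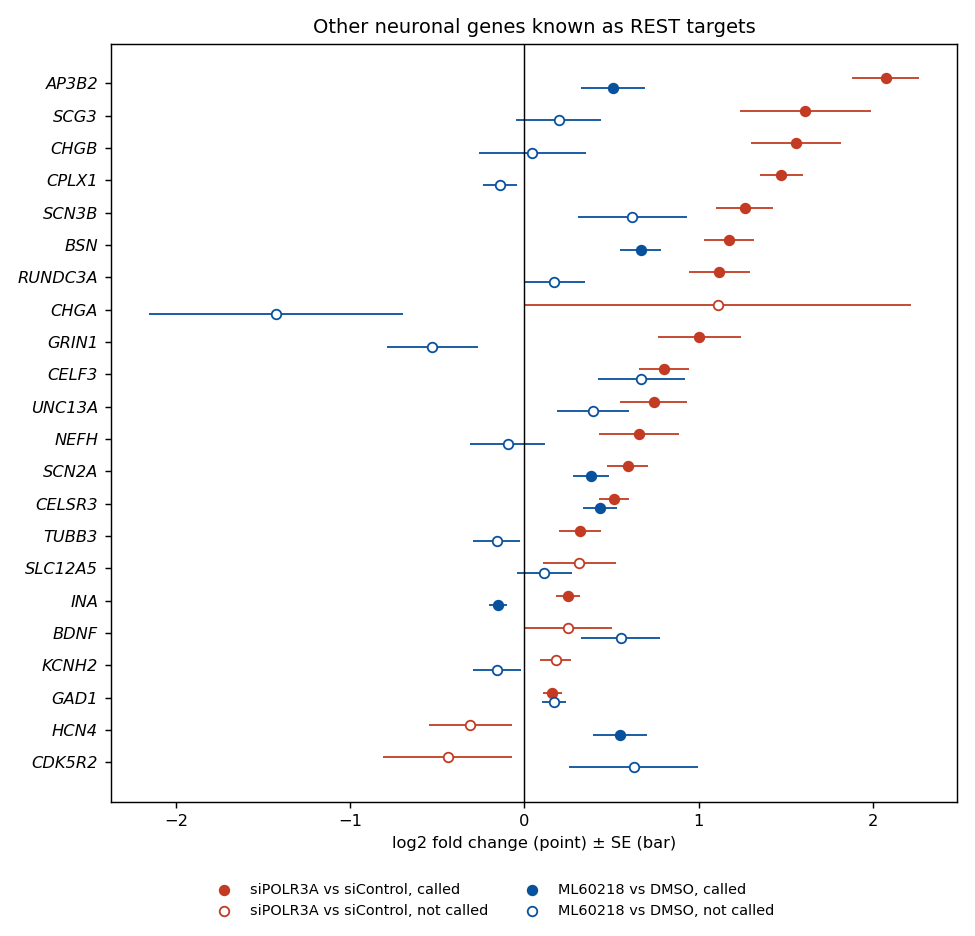
log2 fold change (point) ± SE (bar) of the 22 other neuronal REST targets tested in the siPOLR3A comparison, in both comparisons; filled points were called by edgeR at an adjusted p under 0.05. After siPOLR3A 16 points are filled and all lie above 0, with AP3B2 highest at 2.07.

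Neuronal markers did not move as a whole with these genes. Of 10 neuronal markers, 4 were under 1 CPM in every library, and the sum of the 10 was 562 to 603 CPM in siControl and 286 to 299 CPM in siPOLR3A, 397 to 408 CPM in DMSO and 437 to 452 CPM in ML60218. The sum was carried by the neurofilament genes NEFM and NEFL. Of the 7 markers tested after siPOLR3A, 1 was called higher, 2 were called lower and 4 were not called. Over all genes, 27.4% were called higher and 29.2% lower. The marker called higher, GAD1 (0.16, edgeR adjusted p = 0.0223), and the neuroendocrine marker CHGA are also on the list of REST targets. NEFM fell from 333.6 to 127.4 CPM after siPOLR3A (log2 fold change -1.39, edgeR adjusted p = 1.04e-05) and NEFL from 213.8 to 134.2 CPM (-0.68, edgeR adjusted p = 4.15e-11), while both rose with ML60218, by 0.16 and 0.12 (adjusted p = 0.00764 and 0.0146). The 4 neuroendocrine markers summed to 4.90 to 6.23 CPM in siControl and 7.02 to 8.37 CPM in siPOLR3A. Their part in the SYP and MAPK8IP2 values was not tested.

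The corepressors that REST works with did not move in 1 direction after siPOLR3A, whereas more of them fell than rose with ML60218. After siPOLR3A, 9 of 23 rose and 8 fell, with a median log2 fold change of -0.02, against 27.4% and 29.2% of all genes. SIN3B, a scaffold for histone deacetylases, rose by 0.60 (edgeR adjusted p = 7.91e-10), CTDSPL, a small phosphatase, by 0.56 (adjusted p = 8.23e-09) and SMARCC2, a remodelling subunit, by 0.28 (adjusted p = 1.51e-07). PHF21A, a histone reader of the CoREST complex, fell by 0.47 (edgeR adjusted p = 3.91e-06) and SIN3A by 0.34 (adjusted p = 6.40e-07). With ML60218, 2 rose and 10 fell, with a median of -0.07, against 18.1% and 20.9% of all genes. CDYL and ZMYM2 rose by 0.24 and 0.13, and HMG20B, SIN3B and CTDSP2 fell by 0.25, 0.21 and 0.20. SIN3B thus rose in one comparison and fell in the other.

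Regulators of REST protein changed in both directions as well. After siPOLR3A, 4 of 7 tested rose and 3 fell, against 27.4% and 29.2% of all genes. PRICKLE1, which takes part in the nuclear entry of REST, fell by 0.35 (edgeR adjusted p = 0.00015) and USP7, a deubiquitinase, by 0.06. TERF2, a telomere protein that binds REST, rose by 0.29, SRRM3, a neuronal splicing factor, by 0.23 and BTRC, the ligase subunit that marks REST for degradation, by 0.21. With ML60218, PRICKLE1 rose by 0.49 (edgeR adjusted p = 0.000649), and SRRM3 and BTRC fell by 0.35 and 0.15. Of the 7 tested, 1 rose and 4 fell, against 18.1% and 20.9% of all genes. REST protein was not measured.

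Relatives of the chosen genes showed no shared direction. After siPOLR3A, 8 of 16 tested rose and 6 fell, with a median of 0.08, where 27.4% of all genes rose and 29.2% fell. SYNGR3, a vesicle protein related to synaptophysin, rose by 0.95 (edgeR adjusted p = 6.82e-06), whereas SYNGR1 fell by 0.36 and SNAP23, the widely expressed relative of SNAP25, by 0.37. STMN1 rose by 0.64 and NFASC, an adhesion protein of the L1 family, by 0.69, and SPAG9, which encodes the scaffold JIP4, fell by 0.50 (edgeR adjusted p = 1.57e-09). With ML60218, 2 rose and 5 fell, where 18.1% of all genes rose and 20.9% fell: NRCAM and SPAG9 rose by 0.23 and 0.21, and SYPL1, SYNGR2 and STMN1 fell by 0.31, 0.29 and 0.26. STMN1 thus had the same signs as STMN3 in both comparisons, and SPAG9 had signs opposite to those of MAPK8IP2.

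The same shares over all genes stand behind the counts of the remaining lists. After siPOLR3A, 27.4% of all genes rose and 29.2% fell, and with ML60218 18.1% rose and 20.9% fell. Of 10 genes of the JNK cascade around the scaffolds, 4 rose and 2 fell after siPOLR3A, with a median of 0.08. The kinase genes MAP2K4, MAP3K10 and MAPK10 rose by 0.81, 0.36 and 0.28, and MAPK8, which encodes JNK1, fell by 0.75 from 63.0 to 37.5 CPM (edgeR adjusted p = 4.61e-10), with MAP2K7 at -0.26. With ML60218, 2 rose and 2 fell: MAP3K12 and MAP3K10 rose by 0.42 and 0.24, and MAP2K4 and MAP3K11 fell by 0.32 and 0.22. Among 13 other genes of synaptic vesicles and release, 4 rose and 2 fell after siPOLR3A, and the sizes were well under those of SYP. VAMP2, a SNARE protein of the vesicle, rose by 0.18 and VAMP1 by 0.13, and SYT1, the calcium sensor of release, fell by 0.37. With ML60218, 3 rose (VAMP2 by 0.35, SYT11 by 0.29 and SYNJ1 by 0.21) and 2 fell (RAB3A by 0.35 and SV2A by 0.31).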

How the data were processed

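Strand-specific messenger RNA libraries were made from HEK293T total RNA, per the labels' protocols. The deposited table gives an estimated count (NumReads) and a TPM for each Ensembl transcript in each library, per the file headers, which are those of the program salmon; its version and settings are not given in the sources used here. The submitters' processing notes list hg38, bcl2fastq 2.20, Trim Galore and DESeq2 with no role. Transcripts were assigned to genes through GENCODE 29 (158359 of 194142, with 91.0% to 91.6% of reads), and all per-sample columns were used. The design had assumed counts per gene, so each gene's deposited estimated counts were added up and rounded to whole numbers.

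A comparison used only its 6 libraries, in edgeR 4.0.16 (R 4.3.3): filterByExpr (minimum count 10, minimum total 15), TMM scaling, the robust two-sided quasi-likelihood test and Benjamini-Hochberg adjustment over all tested genes, called under 0.05. CPM used TMM factors of the 12 libraries. The 95% intervals are the fold change ± 1.96 SE. An exact permutation test of 3 against 3 libraries cannot go below 0.1. Alternatives used other scalings, DESeq2 1.42.0, limma 3.58.1 on log2(TPM + 1), other filters and fits, and left out each library. The script was tested on simulated data. No 2 libraries of a group differed by as little as sampling noise.

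The members and lists were chosen with earlier results of these data known. From each list, up to 3 called genes with the largest change per direction and comparison, and mean log2 CPM no lower than 0, were named. The neurofilament genes, VIM, GAD1, CHGA, SCN2A, CELSR3 and GRIA2 were named after their values were seen. A few genes that this rule would name are not reported here. RE1 had been planned within 5 kb of starts; with no genome sequence used here, the windows of 300 bases replaced this.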

Additional observations from a re-analysis of the deposited data

How the results depend on the processing

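The 17 alternatives gave 6762 to 9163 called genes after siPOLR3A (leaving out 1 library, 7997 to 8361) and 3914 to 6799 with ML60218 (4159 to 6501); the lowest ML60218 count, 3914, came from deposited TPM with limma, and the cause was not tested. Of the called genes, 48.4% were higher after siPOLR3A, but 57% on total counts and 58.7% on upper-quartile scaling, and 46.4% with ML60218 but 67%, 58.6% and, on TPM, 81.8%. The replicate block gave 8493 and 5393 calls and changed no call of the 10 genes with ML60218. Same-numbered libraries did not deviate together (correlations of -0.126 to -0.008 and -0.049 to 0.03). No shared effect of the number was thus seen, which cannot settle whether same-numbered samples were handled together. Every alternative kept the siRNA direction of REST (-0.61 to -0.48), SYP (2.05 to 2.40), MAPK8IP2 (1.65 to 2.04), STMN3 (1.33 to 1.60) and VGF (0.47 to 1.47). So it was for SYN1, MAPK8IP1 and SCG5, whereas L1CAM kept its sign in 16 and SNAP25 in 12 of the 17. These fits reuse the libraries that chose the genes, so a kept direction is no test of it. The count of other REST targets that rose after siPOLR3A was 12 to 19 over the same alternatives, chosen for this list after seeing the data, and 3 to 8 with ML60218. Allowing 2 or 4 mismatches gave an RE1 match in 2 or 3 of the 8 genes; windows of 1, 5 and 10 kb were not run. Genes under about 1 CPM rest on few reads, and their values are the least precise.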
